A study of Mus musculus with 36 samples.

Results

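The transcripts described here come from the mouse mitochondrial chromosome. Members were all genes that the deposited liver and kidney tables place on chromosome M or MT, 38 genes of the 39674 genes that the tables hold between them. The liver table lists all 38, namely 2 ribosomal RNA genes (mt-Rnr1 and mt-Rnr2), 13 protein genes, 22 transfer RNA genes and the microRNA entry mmu-mir-805, and the kidney table lists 37, without mmu-mir-805.

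The samples were total RNA of male C57BL/6 NIA mice aged 12 months, 18 libraries each for liver and kidney. All mice had been habituated to the AIN-93M control diet (12% of energy as fat, 78% as carbohydrate). In each tissue 5 libraries came from mice kept on it, 6 from mice given a non-ketogenic high-fat diet (75% fat) for 1 week and 7 from mice given a ketogenic diet (90% fat) for 1 week, each diet with 10% protein. The carbohydrate value of the control diet is that of the sample labels, and the series description gives another value. Tissue was taken during the night, when mice feed. No genetic change was labelled in any group, and the labels do not say that each library came from a separate mouse, so p-values measure only the spread between these libraries.

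The mitochondrial chromosome encodes core subunits of the respiratory chain: 7 of complex I (mt-Nd1 to mt-Nd6 and mt-Nd4l), the cytochrome b of complex III (mt-Cytb), 3 of complex IV (mt-Co1 to mt-Co3) and 2 of ATP synthase (mt-Atp6 and mt-Atp8). It also encodes the rRNAs of the mitochondrial ribosome and the tRNAs that the ribosome needs. Both strands are transcribed into long precursors, and the tRNAs, which lie between the other genes, are cut out and so release the mRNAs and rRNAs. Most genes lie on the plus strand of the tables. The minus strand carries mt-Nd6 and 8 tRNA genes, which are known to be transcribed from the light-strand promoter. Liver and kidney tubules are both rich in mitochondria.

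Libraries held 18872355 to 35921684 counts in liver and 25372126 to 47039290 in kidney, of which 7167814 to 14568070 and 6481614 to 11908546 lay outside the mitochondrial chromosome. The tissues carried their defining markers: albumin (Alb) averaged 28981 CPM (counts relative to library size, scaled with TMM factors) in liver and 5.06 in kidney, and the proximal tubule transporter Slc34a1 averaged 752 in kidney and 0 in liver. The kidney and liver tables differ in their gene sets and in some feature lengths, and may have been counted in different ways. Values of the tissues are therefore set side by side with no test, and tissue and table cannot be told apart. In such bulk samples, fewer cells of a type and less RNA per cell cannot be told apart.

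The kidney result below turns on a tRNA gene, and the sequences show which genes are meant. They are mt-Te, the glutamate tRNA and the member that changed, mt-Ts1 and mt-Tl1, the serine and leucine tRNAs that with mt-Te had the highest counts in kidney, and mt-Tf, the phenylalanine tRNA that was abundant in the liver table. The capitals mark the anticodon, and the letters are those of the GENCODE M21 transcripts (GRCm38), 5′ to 3′ on the gene's own strand.
mt-Te: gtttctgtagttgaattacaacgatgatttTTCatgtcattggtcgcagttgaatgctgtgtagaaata
mt-Ts1: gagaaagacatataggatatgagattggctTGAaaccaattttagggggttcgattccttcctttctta
mt-Tl1: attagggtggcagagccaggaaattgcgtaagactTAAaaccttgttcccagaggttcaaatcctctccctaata
mt-Tf: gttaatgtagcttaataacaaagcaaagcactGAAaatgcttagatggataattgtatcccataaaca

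mt-Te (ENSMUSG00000064369; mm9 chromosome MT, 14071 to 14139, minus strand) was higher in kidney on the ketogenic diet than on the control diet. The control libraries had 16.8, 22.7, 20.9, 19.02 and 21.7 CPM, the high-fat libraries 22.8 to 41.2 (median 28.8) and the ketogenic libraries 24.3 to 52.3 (median 34.4). All 7 ketogenic and all 6 high-fat libraries lay above the highest control library. Between ketogenic and control the log2 fold change was 0.83 ± 0.16 (SE; edgeR quasi-likelihood test, adjusted p = 0.010), from means of 36.01 ± 8.70 (SD, n = 7) and 20.2 ± 2.34 CPM (SD, n = 5). This call was lost without control replicate 0 (log2 0.76, adjusted p = 0.078), without control replicate 3 (0.80, adjusted p = 0.061) and when libraries were scaled on their mitochondrial total (0.67, adjusted p = 0.101). Scaling on the mitochondrial total asks another question, as it sets a member against the mitochondrial counts, which are mostly rRNA. Between high-fat and control the change of mt-Te was 0.56 ± 0.16 and did not pass (adjusted p = 0.467), and between ketogenic and high-fat it was 0.27 ± 0.15 (adjusted p = 1.00). In raw counts mt-Te gave 602 to 1859 per kidney library. Counts of a tRNA gene may come from the mature tRNA or from precursors, which cannot be told apart here. Whether counting used strand is not given, so counts of mt-Te and mt-Nd6 may also include RNA of the plus strand.

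mt-Te was the only called member of the 35 tested in the kidney comparison of ketogenic with control, where 0.325% of all 15074 genes passed. Its neighbour on the same strand, mt-Nd6 (13552 to 14070), which encodes a complex I subunit, had the smallest unadjusted p among the protein genes. mt-Nd6 stood at 801 to 1234 CPM on the control diet (median 992), 1272 to 2604 on the high-fat diet (median 1414) and 1054 to 2346 on the ketogenic diet (median 1600). High-fat libraries did not overlap with control libraries, and 1 ketogenic library lay within the control range. The log2 fold change of mt-Nd6 was 0.75 ± 0.21 for ketogenic against control (adjusted p = 0.201) and 0.73 ± 0.22 for high-fat against control (adjusted p = 0.490), so neither passed in the main test. With DESeq2 the ketogenic change of mt-Nd6 passed (log2 0.74, adjusted p = 0.049).

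**Figure D1:**
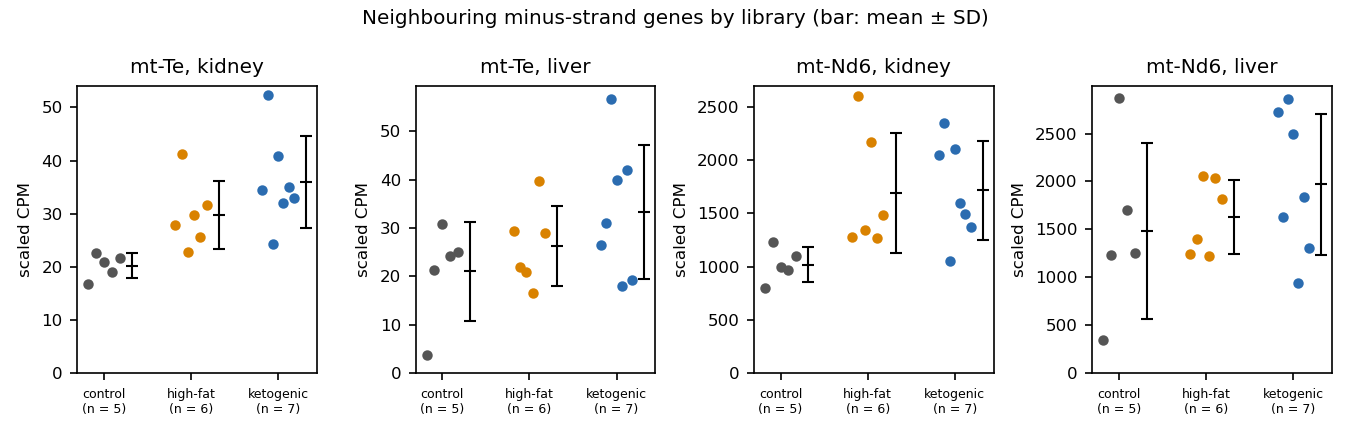
Scaled CPM of mt-Te and mt-Nd6 in each kidney and liver library by diet; points are libraries, and the bars give mean ± SD. In kidney all ketogenic mt-Te values (24.3 to 52.3) lie above all control values (16.8 to 22.7), while in liver the diets overlap.

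Markers of other cell types were read beside this kidney difference. The summed level of the proximal tubule markers (5 of 5 listed in the table) was 7145 to 8649 CPM on control, 5873 to 7653 on high-fat and 4802 to 7920 on ketogenic diet. Its mean was 7727 CPM on control, 6638 on high-fat and 6701 on ketogenic diet. This sum mostly follows 1 gene, Kap, which averaged 4819 CPM over all kidney libraries. Lrp2 averaged 999.7 CPM, Slc34a1 752, Miox 380 and Slc5a2 14.5. The markers of loop to collecting duct (4 of 4) summed to 981 to 1335, 702 to 1382 and 686 to 1137 CPM. Skeletal muscle markers (3 of 3) summed to at most 0.161 CPM in any kidney library. The adipocyte markers (3 of 3) summed to 1.29 to 9.28 CPM on control, 0.515 to 28.2 on high-fat and 0.623 to 2.84 on ketogenic diet. The part of tubule composition in the mt-Te change was not tested.

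Seen over the chromosome, 33 of the 35 kidney members tested had a log2 change above 0 for ketogenic against control, where 53.2% of all genes did. Their median was 0.63, beside 0.02 over all genes. An unadjusted p under 0.05 was found for 16 members, all higher on the ketogenic diet, where 8.35% of all genes had one in either direction and 5.27% had one with a higher value. For high-fat against control 34 of 35 members lay above 0 (52.7% of all genes), with a median of 0.59 beside 0.01. No member was called in that comparison by edgeR, where 0.0133% of genes passed. An unadjusted p under 0.05 was found for 12 members, all higher on the high-fat diet (5.73% of all genes in either direction, 3.73% higher). The 12 fell to 3 and the median to 0.29 without high-fat replicate 1, to 6 and 0.50 without control replicate 0, and to 4 and 0.36 on the mitochondrial total. DESeq2, which gave an adjusted p to 26 members, and limma-voom called 0 members as well. Libraries of the diets did not overlap for 3 members, mt-Te, mt-Nd6 and mt-Nd5, where 0.77% of all genes did not overlap. These comparisons share the 5 control libraries, and members of a chromosome share their precursors and their libraries, so these counts are descriptions and not independent observations.

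**Figure D2:**
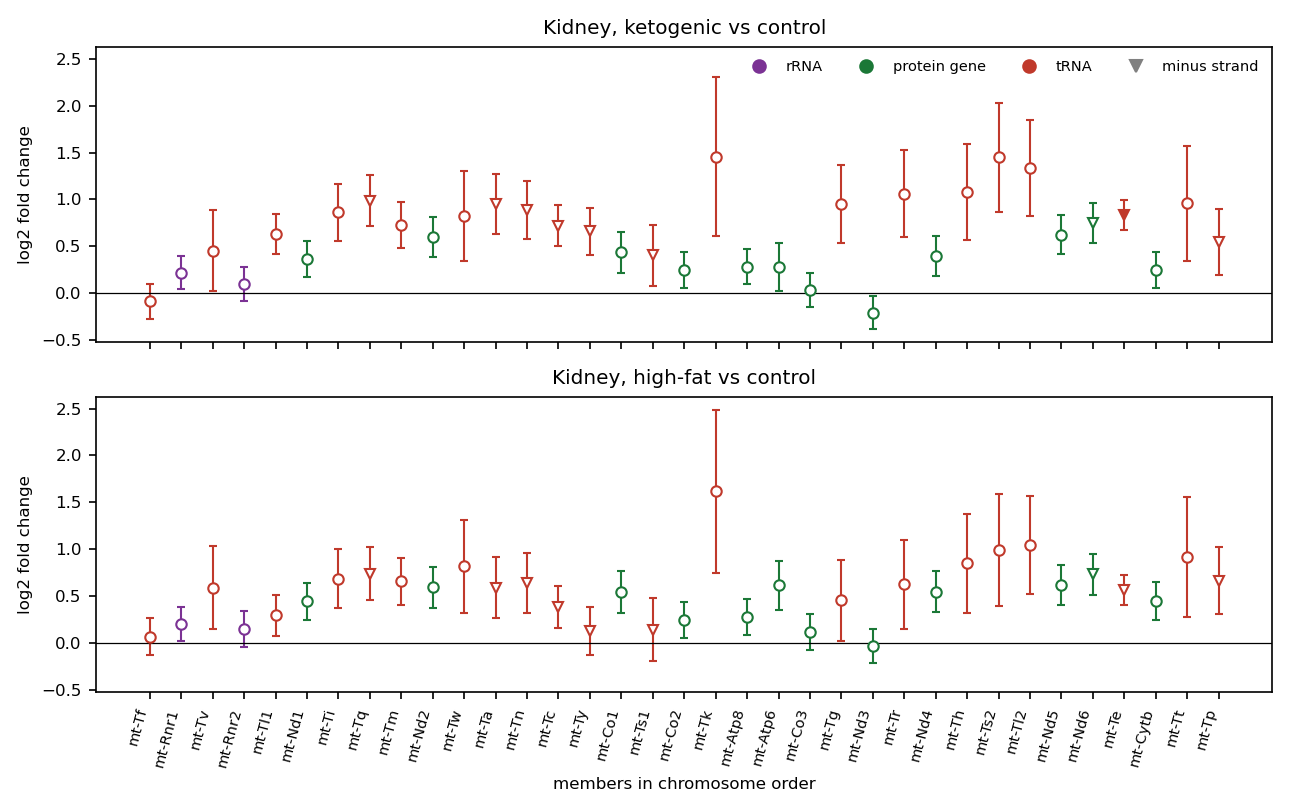
Log2 fold change ± SE of the kidney members tested, in chromosome order, for ketogenic against control (top) and high-fat against control (bottom); triangles are genes of the minus strand and the filled symbol passed an adjusted p of 0.05. Only mt-Te for ketogenic against control is filled, and the rRNA genes lie at 0.10 and 0.22 for ketogenic against control.

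The rRNAs, which form the core of the mitochondrial ribosome, did not pass in either kidney comparison with control. mt-Rnr1, the small subunit rRNA, stood at 154476 to 187172 CPM on control, 172923 to 249201 on high-fat and 169400 to 234860 on ketogenic diet. mt-Rnr2, the large subunit rRNA, stood at 385438 to 533788, 376778 to 671993 and 445758 to 538736 CPM. The diets overlapped for both genes. The log2 changes for ketogenic against control were 0.22 ± 0.18 for mt-Rnr1 and 0.10 ± 0.18 for mt-Rnr2 (adjusted p = 0.782 and 0.931), and for high-fat against control 0.20 ± 0.18 and 0.14 ± 0.19. The value of mt-Rnr2 turned negative when libraries were scaled on the mitochondrial total, and for ketogenic against control also on library totals alone. In kidney mt-Rnr2 made up 65.1% of mitochondrial counts on average, so scaling on the mitochondrial total by itself holds its value near 0.

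Of the 12 protein genes tested in kidney, 11 had a log2 change above 0 in each comparison with control, and none passed in edgeR's main fit, whereas mt-Nd6 passed with DESeq2 for ketogenic against control. Among complex I genes, mt-Nd5 changed by 0.62 ± 0.21 on the ketogenic and 0.62 ± 0.22 on the high-fat diet, and mt-Nd2 by 0.60 ± 0.21 and 0.59 ± 0.22. mt-Nd5 had 4619 to 7433 CPM on control, 7516 to 14514 on high-fat and 6892 to 12395 on ketogenic diet, and its high-fat libraries lay above every control library. mt-Nd4 (0.39 ± 0.21 and 0.54 ± 0.22) and mt-Nd1 (0.36 ± 0.19 and 0.44 ± 0.20) had smaller values. mt-Nd3 lay on the other side of 0 (-0.21 ± 0.18 and -0.04 ± 0.18), and its high-fat value turned positive without control replicate 3 or without high-fat replicate 0.

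The subunits of the other complexes did not pass in either comparison. mt-Cytb of complex III changed by 0.25 ± 0.20 on the ketogenic and 0.44 ± 0.20 on the high-fat diet. In complex IV, mt-Co1, its catalytic subunit, changed by 0.44 ± 0.22 and 0.54 ± 0.23, mt-Co2 by 0.25 ± 0.19 and 0.24 ± 0.19, and mt-Co3 by 0.04 ± 0.18 and 0.11 ± 0.19. The sign of mt-Co3 depended on the scaling, and it turned negative on library totals and on the mitochondrial total. In ATP synthase, mt-Atp6 changed by 0.28 ± 0.26 and 0.61 ± 0.27 and mt-Atp8 by 0.28 ± 0.19 in each comparison. Adjusted p-values of the protein genes ran upward from 0.201 for ketogenic and 0.490 for high-fat against control.

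Transfer RNAs had the larger median log2 changes against control. Of the 21 kidney tRNA genes tested, 20 lay above 0 for ketogenic against control with a median log2 change of 0.86, and 13 had an unadjusted p under 0.05, but only mt-Te passed after adjustment. The 8 minus-strand tRNAs were all above 0 (median 0.78, from 0.40 to 0.99), and of the 13 plus-strand tRNAs 12 were (median 0.95, from -0.09 to 1.46). For high-fat against control all 21 lay above 0, with a median of 0.64. There 4 of the 21 tRNAs had an unadjusted p under 0.05 in the edgeR test, and 8 of the 12 protein genes did. All of these were higher on the high-fat diet, where 3.73% of all genes were so. Beside mt-Te, the libraries of ketogenic and control did not overlap for mt-Ta (alanine) and mt-Tn (asparagine), both on the minus strand, where 0.71% of all genes did not overlap. mt-Ta and mt-Tn had low levels, up to 4.02 and 10.9 CPM on the ketogenic diet, and their changes of 0.95 ± 0.32 and 0.88 ± 0.31 did not pass (adjusted p = 0.355 and 0.397).

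The other tRNAs of highest count overlapped between diets. mt-Ts1 had 64.4 to 150 CPM on control, 49.5 to 155 on high-fat and 58.2 to 213 on ketogenic diet, with overlap of all diets and a change of 0.40 ± 0.33 for ketogenic against control (adjusted p = 0.783) and 0.14 ± 0.34 for high-fat against control. mt-Tl1 had 8.77 to 12.1 CPM on control, 9.51 to 19.8 on high-fat and 9.72 to 25.1 on ketogenic diet, and changed by 0.63 ± 0.21 for ketogenic (adjusted p = 0.375) and 0.29 ± 0.22 for high-fat against control.

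Several tRNAs of both strands were high in the same few kidney libraries. mt-Tk (lysine) gave 95 counts in high-fat replicate 1, 53 in high-fat replicate 3 and 120 in ketogenic replicate 0, against 6 to 29 in the other 15 libraries. mt-Td (aspartate) gave 84, 53 and 85 counts in the same 3 libraries and 1 to 11 in the others. mt-Tl2 (leucine) reached 248, 212 and 397 there and 265 in ketogenic replicate 3, against 44 to 215 elsewhere. On the minus strand, mt-Tp (proline) gave 347, 233 and 323 counts in the first 3 of these libraries and 90 to 217 in the others. The standard errors were wide for some of them, as for mt-Tk (1.46 ± 0.85) and mt-Ts2 (1.45 ± 0.58) between ketogenic and control. mt-Td was too low to be tested in either tissue.

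**Figure D3:**
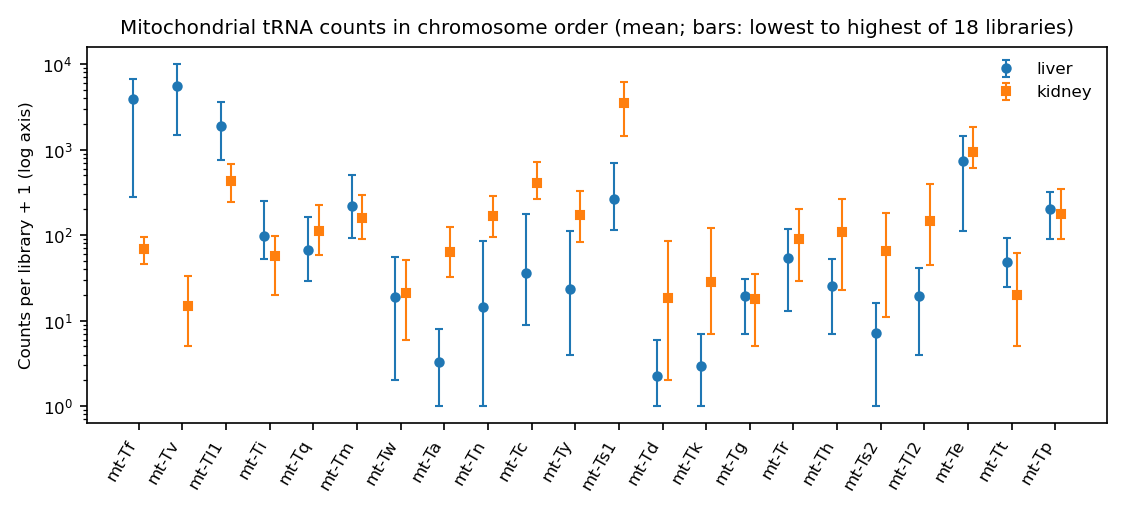
Raw counts per library of the 22 tRNA genes in chromosome order, plus 1 and on a log axis; points are means over 18 libraries and bars run from the lowest to the highest library. mt-Tf, mt-Tv and mt-Tl1 lead in the liver table, whereas mt-Ts1 leads in the kidney table with a mean of 3495 counts.

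The order of tRNA counts differed between the tables. Tissue and way of counting cannot be told apart in this order. In liver mt-Tv (valine), mt-Tf and mt-Tl1 averaged 5509, 3886 and 1889 counts and together made up most tRNA counts, with mean shares of 41.8% ± 13.1, 29.97% ± 10.4 and 14.3% ± 3.24 (SD, n = 18). These 3 genes flank the rRNA genes: mt-Tf ends at position 68 and mt-Rnr1 starts at 70, mt-Tv fills 1025 to 1093 between the rRNAs, and mt-Tl1 starts at 2676 after mt-Rnr2 ends at 2675. In kidney mt-Tv averaged 13.7 and mt-Tf 67.1 counts, and mt-Ts1, mt-Te and mt-Tl1 led with shares of 50.9% ± 9.74, 14.7% ± 5.41 and 6.41% ± 1.29. tRNAs as a class took 0.0611% to 0.113% of mitochondrial counts in liver and 0.0199% to 0.0470% in kidney.

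Shares of counts were compared between diets as well, and none passed correction. Mitochondrial genes took 68.3% to 74.7% of kidney counts on control (median 72.2%), 69.4% to 79.7% on high-fat (74.03%) and 70.4% to 76.5% on ketogenic diet (74.1%). The rRNA share of mitochondrial counts was 91.4% to 93.1% on control, 88.7% to 91.07% on high-fat and 89.1% to 92.1% on ketogenic diet, and high-fat libraries lay below all control libraries. Between high-fat and control it differed by -1.90 percentage points (89.98% ± 0.867 against 91.9% ± 0.722, SD, n = 6 and 5; two-sided exact permutation p = 0.0043, adjusted over 30 such tests p = 0.130). The smallest p that the 462 assignments allow is 0.0022.

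With mitochondrial rRNA set aside, the protein genes took 12.9% to 20.1% of the remaining kidney counts on control, 19.07% to 28.8% on high-fat and 17.06% to 26.1% on ketogenic diet. The control mean was 17.04%, and every high-fat (6 of 6) and ketogenic (7 of 7) value was higher than it, yet the ranges overlapped. The difference was 5.44 percentage points for high-fat (exact permutation p = 0.015, adjusted p = 0.227) and 4.26 for ketogenic against control (exact permutation p = 0.057, adjusted p = 0.426). For ketogenic against control the rRNA share differed by -1.49 points (exact permutation p = 0.039, adjusted p = 0.391) and the tRNA share was 0.0332% ± 0.00912 against 0.0244% ± 0.00398 (SD, n = 7 and 5; exact permutation p = 0.072, adjusted p = 0.432). None of the 30 tests passed after adjustment, and 3 had an unadjusted p under 0.05, all 3 in kidney.

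**Figure D4:**
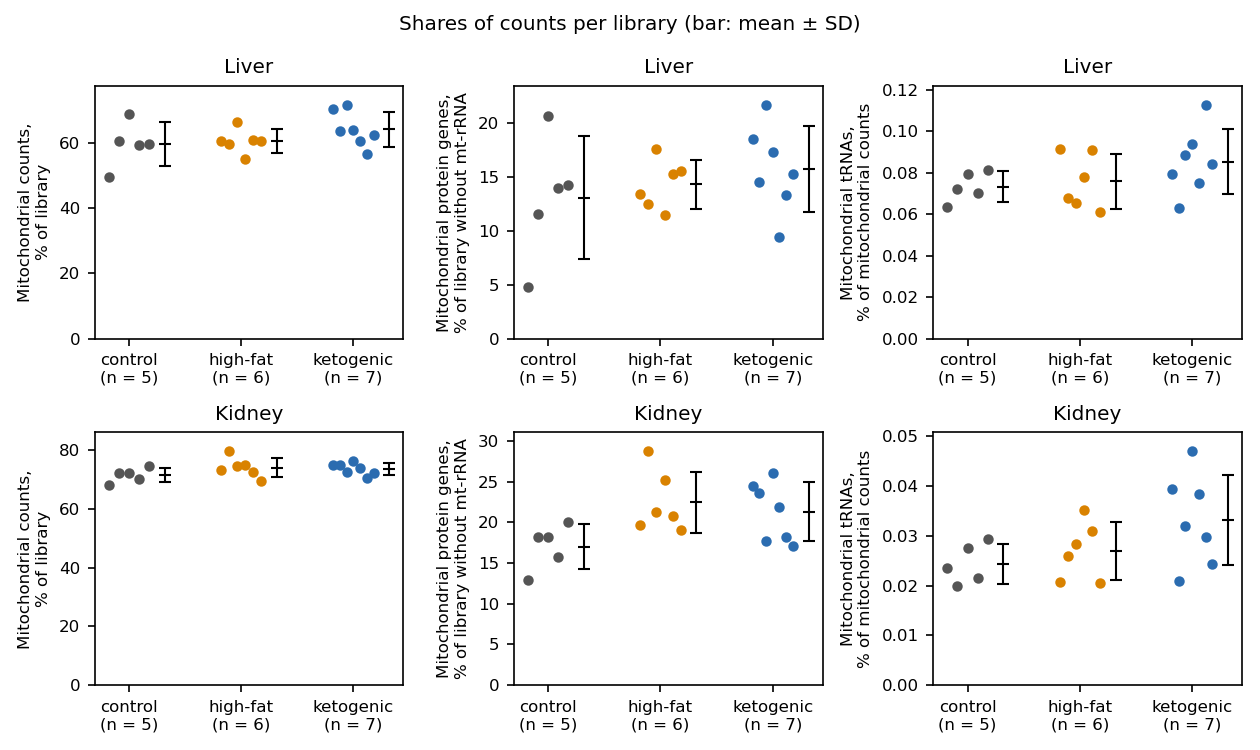
Shares of counts in each library of liver (top) and kidney (bottom) by diet, in percent; points are libraries and the bars give mean ± SD. In kidney the protein-gene share runs from 12.9% to 20.1% on control and from 19.07% to 28.8% on the high-fat diet, and in liver the diets overlap throughout.

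In liver no member was called in any comparison. edgeR passed 0 of the 34 members tested and 0.0% of all 13374 genes in each of the 3 comparisons, while an unadjusted p under 0.05 was found for 3 members between ketogenic and control (9.39% of all genes), 0 between high-fat and control (7.1%) and 6 between ketogenic and high-fat (3.19%). All of these were higher on the ketogenic diet, where 4.36% and 1.66% of all genes were so, and 2.57% of all genes were higher on high-fat than on control. DESeq2, which gave an adjusted p to 22 members between ketogenic and control and to 38 in the other comparisons, and limma-voom also called 0 members. Libraries of the diets overlapped for each member tested in each comparison, whereas 0.508%, 0.456% and 0.135% of all genes did not overlap. The median log2 change of the members was 0.32 between ketogenic and control, -0.11 between high-fat and control and 0.37 between ketogenic and high-fat, beside -0.02, -0.02 and 0.01 over all genes. Of the 34 members, 30, 13 and 32 lay above 0 in these comparisons, where 47.2%, 47.8% and 51.6% of all genes did. Scaled on the mitochondrial total, the medians were 0.10, -0.06 and 0.09 with 22, 15 and 22 members above 0 and 0 members with an unadjusted p under 0.05. Between ketogenic and control the median was 0.18 without control replicate 0 and 0.21 without ketogenic replicate 0. The high-fat median turned to 0.08 without control replicate 2 and to 0.02 without control replicate 3, and was -0.20 without control replicate 0. Between ketogenic and high-fat the 6 members became 1 without ketogenic replicate 0, 3 without high-fat replicate 3 and 10 without ketogenic replicate 6.

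mt-Nd2, a complex I gene, had the smallest unadjusted p of the liver members between ketogenic and control. It had 499 to 1908 CPM on control, 957 to 2000 on high-fat and 959 to 2756 on ketogenic diet, and changed by 0.70 ± 0.28 (adjusted p = 0.458). mt-Co3 of complex IV differed by 0.58 ± 0.19 between ketogenic and high-fat (adjusted p = 0.999). mt-Te in liver had 3.77 to 30.9 CPM on control, 16.6 to 39.8 on high-fat and 18.02 to 56.7 on ketogenic diet, with overlap between all diets. The tRNA share of mitochondrial counts in liver was 0.0733% ± 0.00732 on control, 0.0759% ± 0.0133 on high-fat and 0.0854% ± 0.0157 on ketogenic diet (SD, n = 5, 6 and 7), and the smallest exact permutation p of the pairs was 0.149.

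The liver control library of replicate 0 stood apart. Mitochondrial genes made up 49.7% of its counts against 55.07% to 71.7% in the other 17 liver libraries, and protein genes took 4.80% of its counts without mitochondrial rRNA, against 9.44% to 21.7% in the others. Without it the difference in mitochondrial share between high-fat and control turned from 0.92 to -1.56 percentage points. The liver mt-Rnr2 to mt-Rnr1 count ratio ran from 1.48 in ketogenic replicate 0 to 3.47 in ketogenic replicate 4, wider than in kidney, where it ran from 2.05 to 2.95. No diet pair differed in this ratio beyond the spread between libraries (smallest exact permutation p = 0.188, kidney ketogenic against control).

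Levels per kilobase of gene gave a similar order of protein genes in both tables. mt-Co1 was highest of them. The rRNAs mt-Rnr2 and mt-Rnr1 stood at 1839% ± 381 and 1191% ± 241 of its level in kidney and at 1456% ± 584 and 985% ± 347 in liver (SD over 18 libraries). mt-Cytb followed at 47.7% ± 9.91 of mt-Co1 in kidney and 35.4% ± 5.68 in liver (SD over 18 libraries). mt-Nd1, mt-Co3, mt-Nd4 and mt-Nd5 ranged between 27.8% and 33.8% of mt-Co1 in kidney and between 20.9% and 28.0% in liver, and their neighbours in this order did not differ beyond their spread. mt-Nd6 stood at 16.8% ± 3.26 in kidney and 17.8% ± 4.19 in liver.

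The lowest levels belonged to mt-Atp8 and mt-Nd4l, and the cause was not tested. mt-Nd4, whose reading frame overlaps that of mt-Nd4l, stood at 32.6% ± 8.59 of mt-Co1 per kilobase in kidney and 27.5% ± 4.42 in liver. mt-Atp8, which overlaps mt-Atp6, stood at 3.03% ± 0.741 of mt-Co1 per kilobase in kidney and 0.492% ± 0.121 in liver, where its counted length was 161 bases against 204 in the kidney table. mt-Nd4l, which precedes and overlaps mt-Nd4, gave 0 to 4 counts per kidney library, with 3 libraries at 0 (a count of 0 allows up to 3), beside 145316 to 431917 for mt-Nd4. In liver mt-Nd4l gave 2 to 209 counts, the highest in high-fat replicate 3. It was therefore not tested in kidney.

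**Figure D5:**
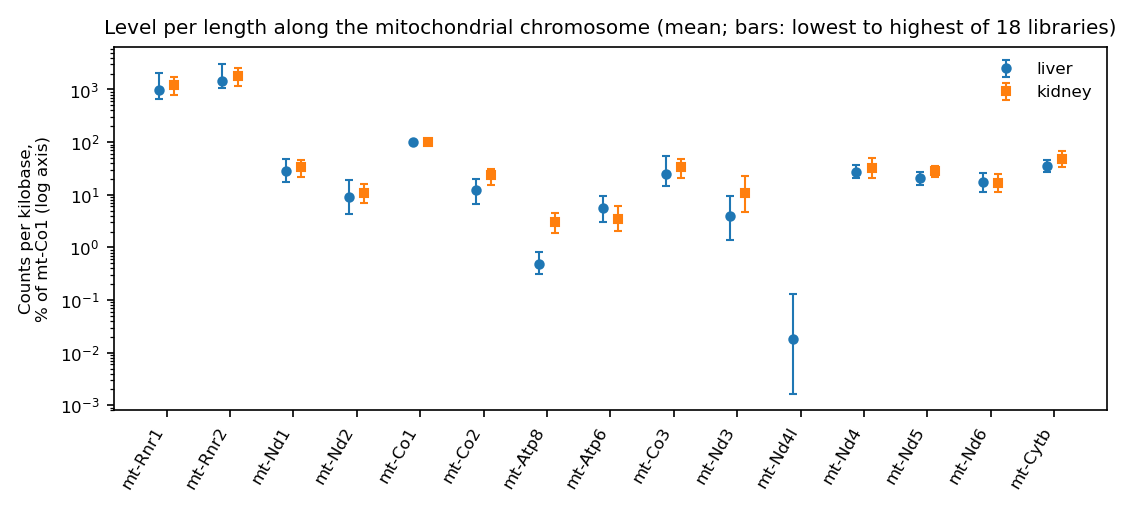
Counts per kilobase of the rRNA and protein genes as a percentage of mt-Co1, in chromosome order and on a log axis; points are means over 18 libraries and bars run from the lowest to the highest. The rRNA genes lie highest, at means of 985% to 1839%, and mt-Nd4l in liver lies lowest; mt-Nd4l was too low in kidney to be drawn.

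Several members have nuclear copies, and reads shared by a member and its copy cannot be assigned with certainty, so the values of these members are uncertain to that extent. Against GENCODE M21 transcripts outside the mitochondrial chromosome, 18 of the 37 members with a sequence matched over at least 50% of their length. Of these, 7 had 95% identity or more in their alignment of highest score. The pseudogene transcripts matched at 100% identity were those of mt-Co2, mt-Co3, mt-Atp6, mt-Nd4l and, over 63.6% of its length, mt-Nd4. The copy of mt-Nd4l, Gm10222, averaged 5.94 counts in kidney and 5.17 in liver. Gm13340, at 97.6% identity to mt-Co1, averaged 422 counts in kidney and 657 in liver, and Gm13341, a copy of mt-Co2 at 95.9% identity, 159 and 78.1. Gm10925, named for the mt-Atp6 copy but with another identifier in the reference, averaged 3195 counts in kidney beside 12365 for mt-Atp6. mt-Te had no such match among these transcripts, and mt-Nd6 had Gm11408 at 93.6% identity, with an average of 60.9 counts in kidney beside 47798 for mt-Nd6. Only annotated transcripts were searched, so a nuclear copy of mt-Te outside them would have been missed. None of the 3 copies tested in kidney or the 2 in liver was called. In kidney all 3 had a log2 change above 0 against control, with a median of 0.28 for ketogenic and 0.38 for high-fat. For high-fat, Gm10925 had an unadjusted p under 0.05 in the edgeR test, where 3.73% of all genes had one with a higher value.

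Nuclear genes that make, process and partner these transcripts were not called by the main test. The lists covered mitochondrial transcription, RNA processing and decay, DNA replication, regulators of biogenesis, tRNA synthetases and translation factors, mitochondrial ribosomal proteins and the nuclear subunits of complexes I, III, IV and V. edgeR called 0 of 239 such genes in kidney and 0 of 238 in liver in each comparison, and limma-voom called 0 as well. An unadjusted p under 0.05 was found by edgeR in kidney for 8 of the 239 between ketogenic and control (8.35% of all genes). It was found for 2 between high-fat and control (5.73%) and 3 between ketogenic and high-fat (4.07%). In liver it was found for 12, 25 and 6 of the 238, where 9.39%, 7.1% and 3.19% of all genes had one. DESeq2 called 2 genes in liver between ketogenic and control, of 191 given an adjusted p, and 0 elsewhere. In that liver comparison it called 79 of all 7099 genes given one. For ketogenic against control in kidney the list medians lay between -0.06 and 0.04, beside 0.02 over all genes. In liver the 70 nuclear respiratory chain and ATP synthase genes had a median of -0.41 between high-fat and control, with 5 above 0 and 10 at an unadjusted p under 0.05, all lower on the high-fat diet (7.1% of all genes had one). Between ketogenic and high-fat all 70 lay above 0 in liver (median 0.29), where 51.6% of all genes did. Some libraries stood apart for this list. The summed level of the 70 genes was 6474 and 6455 CPM in control replicates 0 and 1 and 3640 to 5404 in the other 3, 3524 to 5513 on high-fat, and 6121, 6700 and 6485 in ketogenic replicates 0, 1 and 4 against 4185 to 4645 in the other 4. The control and ketogenic libraries of lower level thus overlapped with the high-fat range. With single libraries left out the 10 genes ran from 1 (without control replicate 0) to 37 (without high-fat replicate 1). The ketogenic against high-fat median was 0.17 without ketogenic replicate 0 and 0.18 without ketogenic replicate 1, and it was 0.07 with 44 genes above 0 on library totals and -0.03 with 31 above 0 on the mitochondrial total.

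For ketogenic against control in kidney, the genes named here had the smallest p of their own list, up to 2 for each list. Top3a, a topoisomerase that separates replicated mitochondrial DNA, changed by 0.60 ± 0.21 (adjusted p = 0.372), and Polg2, the accessory subunit of the mitochondrial DNA polymerase, by 0.47 ± 0.22 (0.583). Top1mt, the mitochondrial type I topoisomerase, changed by 0.31 ± 0.12 (0.438) and Mterfd2, of the transcription termination factor family, by -0.29 ± 0.13 (0.561). Ears2, the synthetase that charges the glutamate tRNA encoded by mt-Te, changed by -0.25 ± 0.14 (0.672), and Rg9mtd1, a subunit of the enzyme that cuts the 5′ ends of mitochondrial tRNAs, by -0.33 ± 0.15 (0.549). Trnt1, which adds CCA to tRNA 3′ ends, changed by -0.26 ± 0.13 (0.609). Mrps22 and Mrpl44, proteins of the mitochondrial ribosome, each changed by -0.27 ± 0.13 (0.601 and 0.605), and Tsfm, a mitochondrial elongation factor, by 0.25 ± 0.15 (0.688). Ndufv3 of complex I and Atp5f1 of ATP synthase changed by 0.15 ± 0.11 (0.753) and -0.15 ± 0.13 (0.807). Ppard, a nuclear receptor of fatty acids, changed by -0.46 ± 0.19 (0.529) and Sirt3, a mitochondrial deacetylase, by 0.27 ± 0.12 (0.550); all values in parentheses are adjusted p-values of the edgeR test.

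In liver the smallest values of the same comparison were for Ppard (-1.21 ± 0.28) and Mtif3, a mitochondrial translation initiation factor (0.65 ± 0.16), each with an adjusted p of 0.224 in the edgeR test. Ppargc1a, a coactivator of mitochondrial biogenesis, changed by -0.40 ± 0.18 (adjusted p = 0.492). Fastkd1 and Fastkd3, RNA-binding proteins of the mitochondrial FASTK family, changed by -0.42 ± 0.15 and -0.55 ± 0.22. Tfam, which packages mitochondrial DNA and acts in the start of its transcription, changed by 0.24 ± 0.13 (edgeR, adjusted p = 0.595).

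Ketogenic and high-fat diets were set against each other directly as well. In kidney the members' median log2 change was 0.02, 23 of 35 lay above 0 (51.8% of all genes), no member was called where 0.0464% of genes were, and 1 member had an unadjusted p under 0.05, higher on the ketogenic diet (4.07% of all genes in either direction, 2.08% higher), namely mt-Ty (tyrosine; 0.53 ± 0.23, adjusted p = 1.00). Without high-fat replicate 1 the median was 0.24 and 7 members had an unadjusted p under 0.05, and without ketogenic replicate 3 the median was -0.05 with 0 such members. DESeq2 and limma-voom called 0 members there. Libraries of these diets overlapped for each member tested, and 0.206% of all genes did not overlap.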

How the data were processed

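Total RNA was amplified with random and oligo-dT primers and sequenced as 18 barcoded libraries per tissue, per the labels' protocols. The authors deposited a table for each tissue, and per the file headers the columns used here hold raw counts that had not been normalized. The kidney columns were handled as estimated counts, which the authors deposited as raw values per the file headers, and since all are whole nothing was rounded. The submitters' processing notes name TopHat2 2.0.11, DESeq 1, Subread, featureCounts, edgeR and mm9, with no role or order. Whether counting used strand is not given in the sources used here. Overlapping genes of opposite strands, and RNA of opposite strands at a gene, therefore cannot be told apart. Another 90 per-sample columns and the authors' own comparisons were not used. Coordinates are those of the kidney table in mm9, and liver starts were raised by 1.

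Genes with low counts were removed by diet (filterByExpr of edgeR 4.0.16, minimum count 10), and libraries were scaled by TMM and fitted with the robust quasi-likelihood test in R 4.3.3, all 18 libraries of a tissue in 1 fit. Benjamini-Hochberg adjustment covered every gene of a comparison, with a threshold of 0.05, and CPM use the same scaling. The 5 share measures (mitochondrial share of library, rRNA and tRNA shares of mitochondrial counts, protein-gene share of the library without mitochondrial rRNA, and the mt-Rnr2 to mt-Rnr1 ratio) were compared with exact permutation tests over libraries, two-sided on the absolute difference of means and adjusted over 30 tests. Alternatives were other scalings, no filter, DESeq2 1.42.0, limma-voom 3.58.1, fits of 2 diets, a replicate block, a log scale for shares, and each library left out; the same settings for the nuclear respiratory chain and ATP synthase list were added after seeing the data. Named genes were the rRNA and protein genes, the 3 tRNAs of highest mean count per tissue and called tRNAs. For each nuclear list they were called members or else the 2 of smallest p between ketogenic and control, of which most are printed, and other tRNAs are printed by range or as chosen after their values were seen (mt-Ta, mt-Tn, mt-Tk, mt-Td, mt-Tl2, mt-Ts2, mt-Tq, mt-Ty). Members, lists and tests were chosen with earlier results of these data known. Simulated data gave every gene of a tissue the same spread (common dispersion 0.101 in liver and 0.0419 in kidney). With 13347 liver and 15022 kidney genes tested, the fit recovered 40% and 91% of genes changed 2-fold. It recovered 98% and 100% of those changed 4-fold. These percentages do not hold for members of wider spread. Libraries of 1 group differed by more than sampling noise (chi-square per degree of freedom of at least 17.8 in liver and 5.52 in kidney). No library thus looked like a repeat sequencing of another, and each counted as 1 replicate. That check cannot show whether they came from separate mice. Intervals and limits from counts cover counting error only. Nuclear copies were sought with blastn 2.17.0.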

Additional observations from a re-analysis of the deposited data

Results flagged for a closer look

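Among 135 groups of libraries examined (each diet and tissue for the 5 share measures and the named genes), 15 had a library that stood far from the rest of its group by a gap test on the range, and chance gives about 1 in 20 groups. All values are scaled CPM except the count ratio.

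In liver ketogenic replicate 2 was high for mt-Tv (478, next 253), mt-Atp8 (31.7, next 17.3), mt-Nd4l (3.92, next 0.693) and mt-Cytb (12584, next 8213). Liver ketogenic replicate 0 was high for mt-Tf (296, next 188) and ketogenic replicate 6 low for mt-Nd2 (959, next 2056). On the liver high-fat diet, replicate 2 was low for mt-Tf (7.61, next 101), replicate 1 high for mt-Nd3 (348, next 151) and replicate 3 high for mt-Nd4l (5.85, next 1.38). Liver control replicate 0 was low for mt-Cytb (2102, next 7874).

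In kidney high-fat replicate 1 was high for mt-Nd1 (9153, next 5812) and mt-Cytb (15265, next 10817), and high-fat replicate 3 for mt-Nd3 (799, next 614). Kidney high-fat replicate 5 had a low mt-Rnr2 to mt-Rnr1 ratio (2.05, next 2.56), and ketogenic replicate 1 was high for mt-Atp6 (675, next 388). None of these groups is one of mt-Te.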

How the results depend on the processing

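The count of kidney members called between ketogenic and control was 1, mt-Te. It was 0 when libraries were scaled on the mitochondrial total (mt-Te at 0.67), 2 with DESeq2 and 0 to 1 with each library left out in turn (0 without control replicate 0 or control replicate 3). Under these 18 omissions mt-Te ranged from 0.70 to 0.91 with adjusted p from 0.0033 to 0.078. With the replicate block 3 members were called (mt-Te, mt-Nd6 and mt-Tq); no label ties a number to a mouse or batch, and same-numbered libraries correlated in their deviations by -0.22 to 0.395 in that comparison. The block gave a mt-Rnr2 to mt-Rnr1 difference of 0.0694 in liver ketogenic against control (main -0.0495) and 0.0125 in kidney high-fat against control (main -0.0919). In the other comparisons the count of called members was 0 under every alternative run.

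Signs of small kidney changes turned with scaling. On library totals mt-Rnr2 was -0.0106 and mt-Co3 -0.0724 for ketogenic against control, and mt-Co3 -0.0093 for high-fat against control. On the mitochondrial total the ketogenic values were -0.0532 for mt-Rnr2 and -0.115 for mt-Co3, and the high-fat values -0.0461 for mt-Rnr2, -0.0564 for mt-Co3 and -0.0237 for mt-Ts1. That scaling moved the median of all kidney genes to -0.15 (ketogenic) and -0.16 (high-fat), and in liver ketogenic against control to -0.23. Library totals moved the kidney medians to -0.10 and -0.11 and the liver ketogenic median to -0.13. With libraries left out in turn, mt-Co3 ranged from -0.0567 to 0.125 for ketogenic, and mt-Ts1 from -0.0120 to 0.364 and mt-Nd3 from -0.130 to 0.110 for high-fat against control.

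No share test passed under any alternative. With libraries left out in turn, these differences changed sign. In liver ketogenic against control they were the rRNA share (-1.24 to 0.457 points) and the rRNA ratio (-0.226 to 0.106). In liver high-fat against control they were the mitochondrial share (-1.56 to 3.20), the tRNA share (-0.000591 to 0.00551), the protein-gene share (-0.815 to 3.16) and the rRNA ratio (-0.0370 to 0.200). In liver ketogenic against high-fat they were the rRNA share (-0.0185 to 0.827) and the rRNA ratio (-0.304 to 0.0289). In kidney they were the rRNA ratio of high-fat against control (-0.141 to 0.0125) and, for ketogenic against high-fat, the mitochondrial share (-1.32 to 0.734) and the protein-gene share (-1.98 to 0.0782). The cause was not tested in any of these cases. Counts of all genes passing moved by more than 1.5 times between tools: DESeq2 passed 79 liver genes and the block 81 between ketogenic and control, against 0 in the main fit. In kidney DESeq2 passed 96, 21 and 30 genes (main 49, 2 and 7). For kidney ketogenic against control the main calls were 43 higher and 6 lower, and they were 12 and 6 on library totals and 10 and 6 on the mitochondrial total. For kidney ketogenic against high-fat 3 passed on library totals, on the mitochondrial total and with the block, and 4 with limma-voom; for high-fat against control 1 passed on the mitochondrial total and 4 with the block. In liver 4 passed between ketogenic and control when only these diets were fitted, and DESeq2 passed 1 in each other comparison. With libraries left out in turn the counts ran from 21 to 56 (kidney ketogenic against control), 2 to 10 (kidney ketogenic against high-fat) and 0 to 22 (liver ketogenic against control). tRNA genes with a few counts per library are limited by depth.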

Other observations

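The liver table lists a microRNA entry on the mitochondrial chromosome, mmu-mir-805, with 91 to 383 counts per library. It had 3.09 to 10.6 CPM on control, 3.70 to 6.90 on high-fat and 3.64 to 10.3 on ketogenic diet, and its log2 change was -0.55 ± 0.29 for high-fat against control (edgeR, adjusted p = 0.701) and -0.14 ± 0.28 for ketogenic against control (adjusted p = 0.917). The diets overlapped.

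Among liver protein genes the spread over the 18 libraries was smallest for mt-Nd1 (SD of log2 CPM 0.32) and largest for mt-Nd4l (1.74) and mt-Nd3 (0.79). As a share of the counts of all protein genes of a library, mt-Co1 was the steadiest in liver (SD of log2 share 0.14) and mt-Nd5 in kidney (0.12).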
